A study of Mus musculus with 6 samples.

Results

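The nuclear-encoded subunits of respiratory complexes II, III, IV and V, with cytochrome c, were examined in mouse kidney after the operation that the labels name IVCC and after sham surgery. Members were taken by gene symbol: Sdha to Sdhd for complex II, every symbol starting with Uqcr and Cyc1 for complex III, Cycs for cytochrome c, every symbol starting with Cox4 to Cox8 for complex IV, and every symbol starting with Atp5 for complex V. This gave 49 of the 24346 symbols in the deposited table, of which 4 belong to complex II, 9 to complex III, 1 is cytochrome c, 18 belong to complex IV and 17 carry the Atp5 prefix. All libraries came from kidneys of C57BL/6 mice, with 3 libraries after IVCC surgery and 3 after Sham surgery, and the series as a whole is about renal congestion. The labels do not spell out IVCC, give no age, sex or time after surgery, and do not tie the replicates to separate animals, and p-values therefore cover only the spread between these libraries, which may be technical. Expression is given as FPKM, a fragment count divided by transcript length in kilobases and by the size of the library.

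Respiratory complexes pass electrons from metabolic substrates to oxygen in the inner mitochondrial membrane and use the released energy to pump protons. Complex II oxidizes succinate, complex III passes electrons from ubiquinol to cytochrome c, complex IV reduces oxygen, and complex V (ATP synthase) makes ATP from the returning protons. The kidney, above all its proximal tubule and thick ascending limb, is rich in mitochondria because salt reabsorption is costly in ATP.

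Member transcripts tended to be lower after IVCC, but by less than the replicates differed among themselves, and none passed the test. Of the 49 members, 46 averaged 1 FPKM or more across the libraries and were tested. The fitted value was lower in IVCC for 44 of these 46 (51.6% of all 12090 genes tested were lower), with a median log2 fold change of -0.24 on the log2(FPKM + 1) scale against -0.01 over all genes tested. That count was 31 of 46 after scaling to TPM, which moved the median of all genes tested to 0.15, and 30 after quantile normalization. The members' median minus that of all genes tested was -0.23 here, -0.21 after scaling to TPM and -0.04 after quantile normalization. Members had a median transcript length of 744 bp, against 2546 bp over all genes tested. Among other genes tested, 58.8% of those below 500 bp were lower in IVCC, 85.9% at 500 to 700 bp and 82.6% at 700 to 1000 bp. The share was 80.2% at 1000 to 1500 bp, 64.9% at 1500 to 2500 bp and 42.2% at 2500 to 4000 bp. The 2 members with a higher fitted value were Sdha, the catalytic flavoprotein of complex II, and Cox4i2, an alternative subunit of complex IV. No member passed an adjusted p of 0.05 in limma with Benjamini-Hochberg adjustment over all genes (0% of all genes tested did), and the smallest adjusted p among members was 0.924. At an unadjusted limma p under 0.05 there was 1 member, Atp5s, lower in IVCC (1.87% of all genes tested were lower at that level, and 0 members were higher, against 1.7%), and there was none when IVCC replicate 1, IVCC replicate 2, Sham replicate 1 or Sham replicate 3 was left out. Atp5s was also the only member whose groups did not overlap, against 4.22% of all genes tested that lay lower in IVCC without overlap. No member lay higher in IVCC without overlap, against 4.09% of all genes tested.

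**Figure D1:**
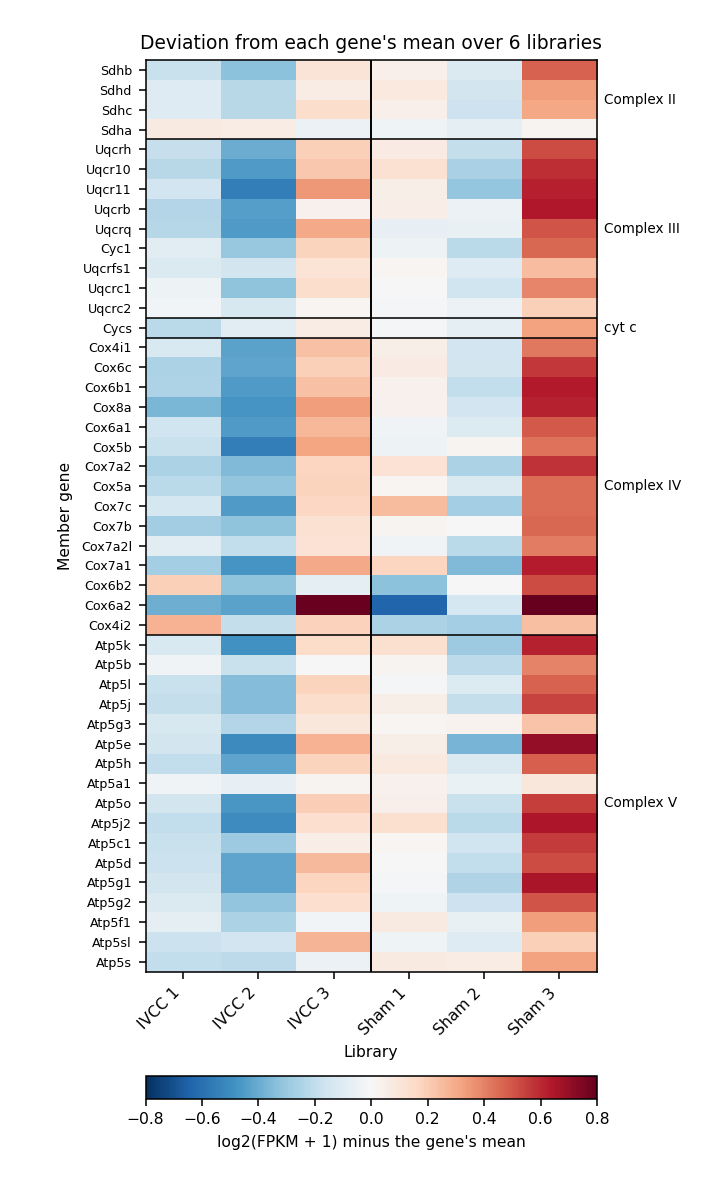
Heat map of the 46 tested members (rows, grouped by complex and ordered by mean FPKM within it) in the 6 libraries (columns); colour is log2(FPKM + 1) minus the gene's mean over the libraries. Sham replicate 3 is the reddest column and had the highest value for 43 members, and IVCC replicate 2 is the bluest and had the lowest value for 38.

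The members moved together from library to library, and the order of the libraries did not follow the groups. Averaged over the 46 members, the deviation from each gene's mean was -0.15, -0.34 and 0.16 log2 units in IVCC replicates 1 to 3 and 0.01, -0.15 and 0.46 in Sham replicates 1 to 3. IVCC replicate 3 therefore lay above Sham replicates 1 and 2, and Sham replicate 2 lay level with IVCC replicate 1. Sham replicate 3 held the highest value of 43 members (36.2% of all genes tested were highest there), and it exceeded all 3 IVCC libraries for the same number, the exceptions being Sdha, Cox4i2 and Atp5sl. IVCC replicate 2 held the lowest value of 38 members (26.0% of all genes tested). For 45 of 46 members the difference between Sham replicates 3 and 2 was larger than the fitted difference between the groups. For the members, the median fold change in log2 units was -0.06 without Sham replicate 3, -0.11 without IVCC replicate 2, -0.39 without IVCC replicate 3 and -0.35 without Sham replicate 2. Without Sham replicate 3 the medians of complexes II to V were -0.03, -0.02, -0.07 and -0.06, and 33 members were lower. Summed FPKM was 768192, 719896 and 927860 in IVCC replicates 1 to 3 and 854859, 775720 and 1118258 in Sham replicates 1 to 3. The sum was thus also highest in Sham replicate 3 and lowest in IVCC replicate 2. Its part in the members' movement was not tested beyond the scaling to TPM. As a share of the summed FPKM of each library, the members took 5.26%, 4.86% and 5.53% in IVCC and 5.46%, 5.24% and 5.74% in Sham, which overlap (5.22% ± 0.336 and 5.48% ± 0.251, SD, n = 3 each).

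The sequences just upstream of the members' starts were read from RefSeq (build GRCm38.p6) for letters bound by regulators of respiratory genes. Whether these letters bear on the shared movement over libraries was not tested. NRF1 and the ETS factor GABP are transcription factors known for driving many nuclear genes of the respiratory chain. An entry was found for 38 members, with 42 windows among them (the members without one were Sdhc, Cyc1, Uqcrb, Uqcrc2, Uqcrq, Cox4i1, Cox4i2, Cox6a2, Cox6c, Cox8c and Atp5a1). The 250 bases before each start were searched on both strands. The letters of an NRF1 motif, GCGC followed by NN and GCGC, were found in 16.7% of the member windows and in 4.98% of all 32851 windows of that length. The ETS core CCGGAAG was found in 21.4% and 6.91%. The SP1 letters GGGCGGG were found in 23.8% and 23.4%. None of these 3 patterns contains another. The windows compared were not matched to the members for GC content or expression, and the difference in shares was not tested. In the longest stretch of each window outside every annotated exon, NRF1 letters remained for Cox6a1 and Atp5h only. ETS letters remained there for Sdhd of complex II, Uqcr11, Uqcrh, Atp5e and Atp5l. The 4 stretches shown were picked from these and come from complexes III, IV and V. They run 5′ to 3′ on the strand of the gene, with NRF1 and ETS letters in capitals (CTTCCGG is the ETS core on the other strand). No share over all windows was computed for stretches outside exons. A match is a run of letters, and binding was not measured.
Uqcrh (chr4:116075072-116075268, minus strand): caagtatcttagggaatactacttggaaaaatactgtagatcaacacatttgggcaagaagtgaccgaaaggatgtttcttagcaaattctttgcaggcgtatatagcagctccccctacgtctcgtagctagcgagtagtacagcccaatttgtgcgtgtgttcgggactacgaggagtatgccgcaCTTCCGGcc
Cox6a1 (chr5:115348982-115349129, minus strand): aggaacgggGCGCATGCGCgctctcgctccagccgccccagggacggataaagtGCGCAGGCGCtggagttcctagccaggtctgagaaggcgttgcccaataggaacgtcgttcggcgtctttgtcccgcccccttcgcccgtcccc
Atp5h (chr11:115419963-115420127, minus strand): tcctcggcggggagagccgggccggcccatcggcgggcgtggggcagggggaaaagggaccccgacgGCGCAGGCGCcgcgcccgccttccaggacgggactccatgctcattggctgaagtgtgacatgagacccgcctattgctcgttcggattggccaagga
Atp5l (chr9:44920752-44920992, minus strand): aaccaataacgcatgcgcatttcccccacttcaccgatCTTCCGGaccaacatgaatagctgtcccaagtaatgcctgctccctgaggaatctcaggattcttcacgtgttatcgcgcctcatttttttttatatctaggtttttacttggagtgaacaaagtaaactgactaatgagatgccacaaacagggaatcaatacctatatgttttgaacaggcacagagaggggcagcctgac

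Complex II had the median nearest 0 of the 4 complexes, but complex III lay nearer without Sham replicate 3 (-0.02 against -0.03), without IVCC replicate 2 (-0.05 against -0.07) and after quantile normalization (-0.022 against 0.023). Complex II had a median transcript length of 1612 bp, against 535, 645 and 838 bp for complexes III, IV and V. After length and GC content were fitted out of each library, the medians of complexes II to V were -0.05, -0.21, -0.14 and -0.13. The median log2 fold change of complex II was -0.15, with 3 of 4 members lower, but it was 0.03 after scaling to TPM (where all genes tested had a median of 0.15) and 0.02 after quantile normalization. Sdha (chromosome 13, 74322254 to 74350280, minus strand), which binds FAD and oxidizes succinate, stood at 405, 400 and 371 FPKM in IVCC replicates 1 to 3 and at 376, 366 and 389 FPKM in the Sham replicates. Its 6 values lay within a narrow band in which the groups overlapped, at 391.8 ± 18 and 376.9 ± 11.9 FPKM (SD, n = 3 each), and its log2 fold change was 0.06 (95% interval -0.24 to 0.35). Sdhb, the iron-sulfur subunit that passes the electrons on, stood at 551, 497 and 669 FPKM after IVCC and 642, 574 and 865 FPKM in Sham. IVCC replicate 3 was above 2 of the 3 Sham libraries for Sdhb. Its log2 fold change was -0.27 (95% interval -0.75 to 0.21), which spans 0. Sdhd, one of the 2 membrane anchors that hold the ubiquinone site, stood at 384, 353 and 430 FPKM after IVCC and 435, 372 and 520 FPKM in Sham. The other anchor, Sdhc, had a log2 fold change of -0.12. The FPKM ratio of Sdha to Sdhb was 0.734, 0.804 and 0.555 in IVCC and 0.585, 0.637 and 0.450 in Sham. The highest ratios belonged to IVCC replicates 2 and 1 and the lowest to Sham replicate 3, and the groups overlapped through IVCC replicate 3.

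**Figure D2:**
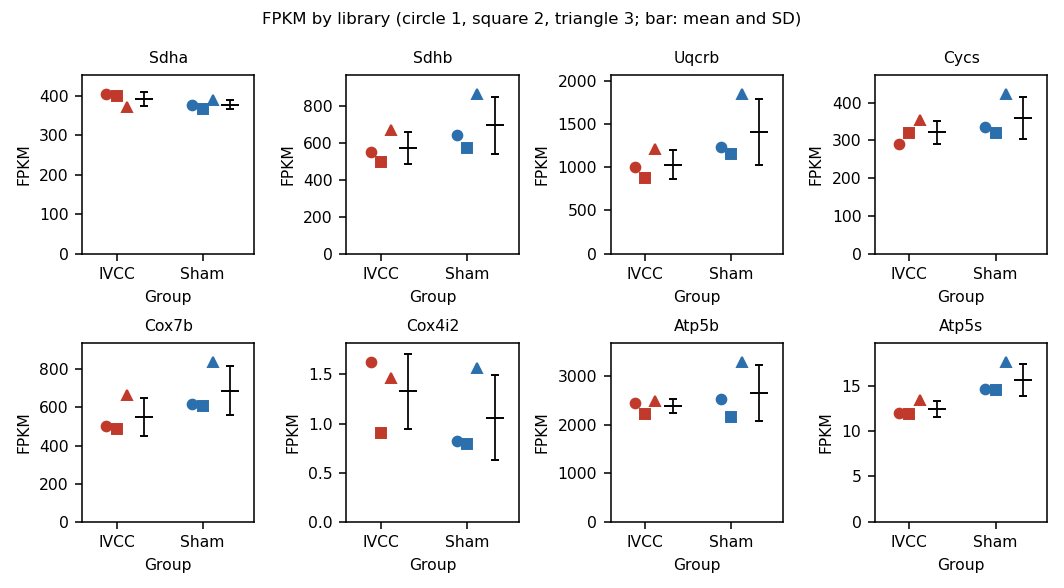
FPKM of 8 members in each library, with IVCC in red and Sham in blue, a symbol for each replicate number, and the mean and SD as bars; each vertical axis starts at 0. The groups overlap in every panel except that of Atp5s, where the 3 IVCC values lie between 11.9 and 13.4 FPKM and the 3 Sham values between 14.6 and 17.6 FPKM.

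All 9 members of complex III had a lower fitted value in IVCC, with a median log2 fold change of -0.24. Only 5 did so after scaling to TPM, where all genes tested had a median of 0.15, or after quantile normalization. Those 5 were in both cases the small accessory subunits, which lay further down than the large ones. The 2 core proteins Uqcrc1 and Uqcrc2, the Rieske iron-sulfur protein Uqcrfs1 and cytochrome c1 (Cyc1) ranged from -0.15 to -0.09, whereas Uqcrb, Uqcrq, Uqcrh, Uqcr10 and Uqcr11 ranged from -0.43 to -0.24. The median transcript length was 1586 bp for the large subunits and 474.5 bp for the small ones. After length and GC content were fitted out of each library, their medians were -0.0007 and -0.24. How far the split goes with length was not tested. Uqcrb (chromosome 13, 66900617 to 66905378, minus strand), a small subunit near the ubiquinone site, had the most negative log2 fold change of all members, -0.43 (95% interval -0.99 to 0.13, limma adjusted p = 0.924). It stood at 1005, 871 and 1213 FPKM after IVCC and 1228, 1149 and 1846 FPKM in Sham. Only IVCC replicate 3, which exceeded Sham replicate 2, made the groups overlap. Uqcr10 stood at 1286, 1095 and 1741 FPKM after IVCC and 1633, 1252 and 2261 FPKM in Sham. The hinge protein gene Uqcrh, which helps cytochrome c dock, stood at 1378, 1190 and 1790 FPKM after IVCC and 1639, 1376 and 2252 FPKM in Sham. In both, IVCC replicate 3 stood above Sham replicates 1 and 2. Uqcrc2 was steadier, at 378, 352 and 389 FPKM after IVCC and 383, 373 and 440 FPKM in Sham. Levels spanned a range within the complex, from a mean of 386 FPKM to one of 1604 FPKM over the 6 libraries.

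Cytochrome c itself, the soluble carrier between complexes III and IV, stood at 291, 319 and 353 FPKM after IVCC and 337, 320 and 423 FPKM in Sham (gene Cycs). The values of IVCC replicate 2 and Sham replicate 2 nearly coincided. Its log2 fold change was -0.16 (95% interval -0.53 to 0.21).

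Complex IV, whose catalytic core is encoded by mitochondrial DNA, is represented by its nuclear subunits. The table as used here had 0 rows for mitochondrially encoded subunits under either naming style searched, so the core is not analysed here. Of 18 members, 15 were tested and 14 had a lower fitted value in IVCC, with a median log2 fold change of -0.28. After scaling to TPM, where all genes tested had a median of 0.15, 11 were lower, as were 11 after quantile normalization. The 12 members with a mean above 100 FPKM were all lower, from -0.33 to -0.11, except for 1 of them after scaling to TPM and 3 after quantile normalization. Cox6c, a small membrane subunit, stood at 1797, 1596 and 2440 FPKM after IVCC and 2237, 1932 and 3172 FPKM in Sham. Cox8a, the general form of the smallest subunit, stood at 1561, 1448 and 2540 FPKM after IVCC and 2063, 1811 and 3084 FPKM in Sham, with a log2 fold change of -0.33 (95% interval -1.04 to 0.37). In both genes IVCC replicate 3 was above 2 Sham libraries. Cox7b (chromosome X, 106015700 to 106022450, plus strand) had the smallest unadjusted limma p of the complex, 0.150. It stood at 502, 486 and 663 FPKM after IVCC and 619, 607 and 838 FPKM in Sham, so that IVCC replicates 1 and 2 lay below every Sham library and IVCC replicate 3 did not. Cox6b1, an intermembrane-space subunit, stood at 1784, 1544 and 2487 FPKM after IVCC and 2168, 1845 and 3291 FPKM in Sham.

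Several subunits of complex IV exist in alternative forms encoded by different genes, a general form and one typical of heart and skeletal muscle, testis or low oxygen. In these kidneys the general forms of subunits 4, 6a and 6b made up at least 99.05% of the FPKM of their pair in every library, whereas the 7a family was more mixed. Cox4i1, the general form of subunit 4, stood at 2043, 1648 and 2605 FPKM after IVCC and 2297, 1994 and 2970 FPKM in Sham. Its alternative Cox4i2, known for its induction by low oxygen and its expression in lung, stood at 1.63, 0.90 and 1.46 FPKM after IVCC and 0.82, 0.796 and 1.56 FPKM in Sham. Cox4i2 thus made up 0.0796%, 0.0546% and 0.0561% of the pair in IVCC and 0.0357%, 0.0399% and 0.0525% in Sham. These shares did not overlap, but the FPKM of Cox4i2 did, and its lowest library corresponds to about 3 reads at the nominal depths given further on, so counting error alone is large. Its log2 fold change was 0.18 (95% interval -0.30 to 0.67, limma adjusted p = 0.924).

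The muscle form Cox6a2 stood at 2.41, 2.33 and 6.72 FPKM after IVCC and 1.89, 3.05 and 6.83 FPKM in Sham, high in replicate 3 of both groups. Its general partner Cox6a1 stood at 1696, 1382 and 2273 FPKM after IVCC and 1854, 1753 and 2658 FPKM in Sham. The testis form Cox6b2 stood at 17.1, 11.7 and 14.1 FPKM after IVCC and 11.6, 14.9 and 21.8 FPKM in Sham, which is at most 0.949% of the sum with Cox6b1 in any library. Among the subunit 7a genes, the muscle form Cox7a1 was no trace transcript. It stood at 89.9, 78.2 and 134.7 FPKM after IVCC and 122.7, 85.2 and 168.8 FPKM in Sham. That was 8.05% to 9.78% of the 7a family in IVCC and 8.33% to 9.41% in Sham, so the share differed by less than the spread between libraries. The general form Cox7a2 stood at 736, 689 and 989 FPKM after IVCC and 951, 737 and 1315 FPKM in Sham. Its share of the family was 70.3%, 71.0% and 71.8% in IVCC and 73.0%, 72.0% and 73.3% in Sham, without overlap. Cox7a2l, a relative of these forms, stood at 221, 204 and 253 FPKM after IVCC and 230, 201 and 311 FPKM in Sham. It was the longest transcript of these 7a genes, and its share was 18.4% to 21.1% in IVCC and 17.4% to 19.6% in Sham. With 3 libraries a group the smallest p of an exact two-sided permutation test is 0.1, so that test could not place any share under 0.05, and no other test of the shares was run.

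The 3 members left untested were low. Cox7b2 and Cox8c were listed at 0 in all 6 libraries, and the muscle and brown fat form Cox8b only had a value in Sham replicate 1, 0.912 FPKM. A listed 0 may stand for a failed estimate or for an unseen transcript. Muscle and fat that might carry Cox7a1 into a kidney sample were checked by their markers. Of 9 muscle markers 4 (Ckm, Mb, Myh1 and Myh4) were listed at 0 in every library, and the 9 summed to 0.288 to 0.711 FPKM in IVCC and 0.395 to 0.873 FPKM in Sham. The brown fat gene Ucp1 and the fat genes Adipoq, Plin1 and Lep were also listed at 0. The fat list summed to 74.8 to 138.9 FPKM in IVCC and 85.9 to 140.3 FPKM in Sham, nearly all of it Fabp4, which endothelial cells also express.

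**Figure D3:**
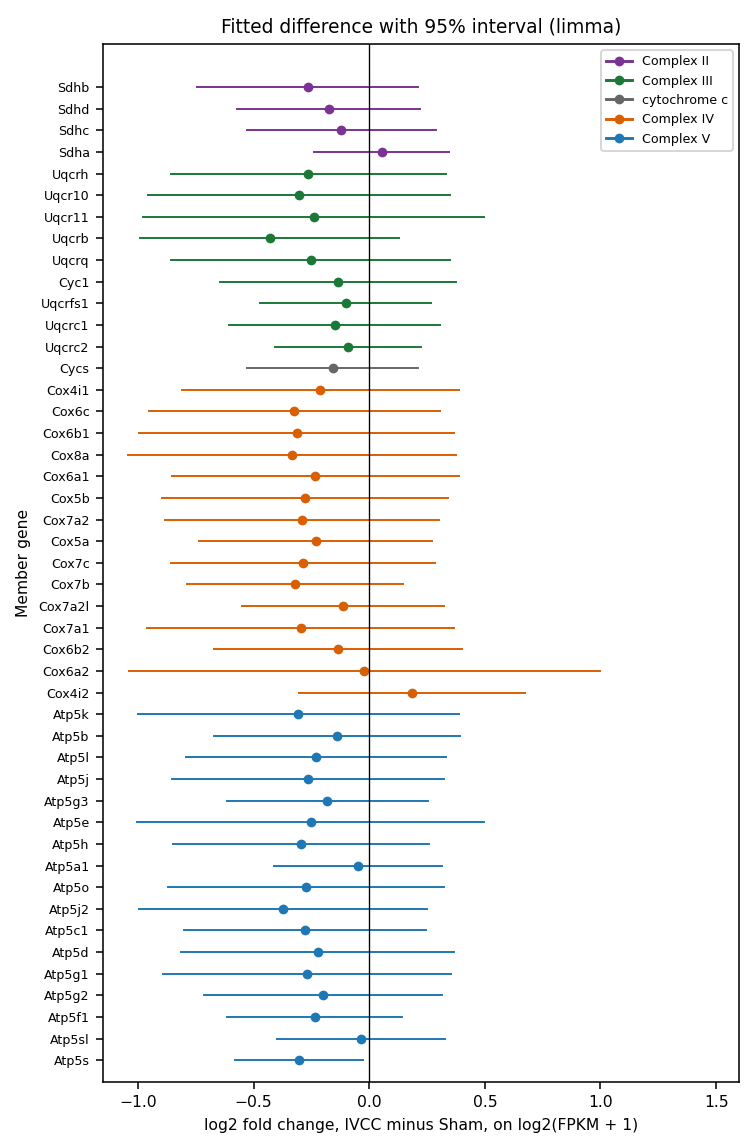
Fitted log2 fold change of each tested member (points; limma on log2(FPKM + 1)), with its 95% interval as a line, coloured by complex. The points of 44 members lie left of 0, and the interval leaves out 0 only for Atp5s. After scaling to TPM, which moved the median of all genes tested to 0.15, 31 points would lie left of 0, and 30 after quantile normalization.

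All 17 members with the Atp5 prefix had a lower fitted value in IVCC, with a median log2 fold change of -0.25. After scaling to TPM, where all genes tested had a median of 0.15, 14 were lower, and 12 were after quantile normalization. In current nomenclature 2 of the 17 are not ATP synthase subunits: RefSeq lists Atp5s as Dmac2l, the former coupling factor B, and Atp5sl as Dmac2, an assembly factor of complex I. Without these the median was -0.25 as well. In the catalytic F1 head, the log2 fold change was -0.05 for Atp5a1 (alpha) and -0.14 for Atp5b (beta), and it reached -0.28 for Atp5c1 (gamma), the turning central stalk. The median transcript lengths of these genes fell in the same order, at 2572.5, 1916 and 1166 bp. Atp5b stood at 2447, 2210 and 2486 FPKM after IVCC and 2530, 2159 and 3290 FPKM in Sham, and its lowest value of all was that of Sham replicate 2. The 4 genes of the peripheral stalk, Atp5f1, Atp5h, Atp5j and Atp5o, ranged from -0.29 to -0.23, and all 4 were lower under both of those scalings too.

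The proton-carrying c ring is built from 1 mature protein encoded by 3 genes that differ in their import signals. Atp5g3 stood at 1560, 1445 and 1811 FPKM after IVCC and 1721, 1737 and 1989 FPKM in Sham. It supplied 58.1% ± 1.69 of the family FPKM in IVCC and 57.1% ± 5.13 in Sham (SD, n = 3 each). Atp5g1 stood at 572, 474 and 715 FPKM after IVCC and 631, 536 and 999 FPKM in Sham, and Atp5g2 at 569, 495 and 677 FPKM after IVCC and 601, 549 and 875 FPKM in Sham. The make-up of the ring transcripts did not separate the groups: the share of Atp5g1 was 21.0% ± 1.35 in IVCC and 22.1% ± 3.49 in Sham. The 3 small membrane subunits Atp5j2, Atp5k and Atp5l ranged from -0.37 to -0.23, a range that takes in the peripheral stalk. Atp5j2 (subunit f) stood at 772, 625 and 973 FPKM after IVCC and 968, 762 and 1386 FPKM in Sham, with a log2 fold change of -0.37 (95% interval -0.997 to 0.25). Atp5k (subunit e), which helps the enzyme form dimers, had the highest mean of all members, 2664 FPKM over the 6 libraries. It stood at 2372, 1845 and 2864 FPKM after IVCC and 2826, 2114 and 3963 FPKM in Sham.

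The only member whose groups separated was thus not a subunit of the enzyme. Atp5s (chromosome 12, 69724950 to 69744660, plus strand) stood at 12, 11.9 and 13.4 FPKM after IVCC and 14.7, 14.6 and 17.6 FPKM in Sham. Each IVCC library was below each Sham library, with a log2 fold change of -0.30 (95% interval -0.58 to -0.03). Its unadjusted limma p was 0.0352 and its adjusted p 0.924, so it did not pass over all genes. Atp5sl stood at 53.9, 54.6 and 73.6 FPKM after IVCC and 59.4, 56.5 and 69.6 FPKM in Sham, and its log2 fold change of -0.04 was the least negative of the prefix.

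**Figure D4:**
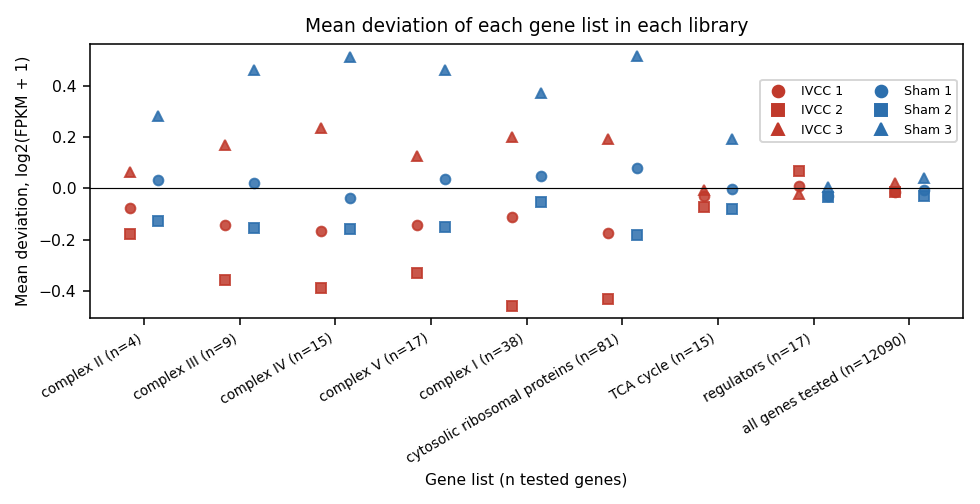
Mean deviation from gene means, in log2(FPKM + 1) units, of each gene list (horizontal axis, with the number of tested genes) in each library; IVCC is red, Sham blue, and the symbol gives the replicate number. Complexes II to V, complex I and the cytosolic ribosomal proteins show the same order of libraries at the ends, with Sham replicate 3 highest and IVCC replicate 2 lowest, while the regulators and all genes tested stay near 0.

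Genes that build or regulate these complexes gave no call either. Of the assembly factors, 4 of 4 for complex II, 5 of 6 for complex III and 17 of 23 for complex IV had a lower fitted value, with medians of -0.15, -0.10 and -0.17, and 0 passed the adjusted threshold. After scaling to TPM these 3 medians were 0.02, 0.06 and 0.0012, all under the median of all genes tested. After quantile normalization they were -0.092, -0.093 and -0.092, with 4, 5 and 17 genes lower. All 7 assembly, inhibitor and accessory genes of complex V were lower, with a median of -0.22 (4 after scaling to TPM and 5 after quantile normalization). Pet100, a chaperone of complex IV assembly, had the smallest limma p of these lists (0.0442 unadjusted, 0.924 adjusted over all genes). It stood at 38.5, 30.9 and 45.8 FPKM after IVCC and 51.7, 43.5 and 67.6 FPKM in Sham. Atpif1, the inhibitor that stops ATP synthase from running backwards, stood at 225, 205 and 328 FPKM after IVCC and 296, 271 and 418 FPKM in Sham. Among 17 genes listed as mitochondrial regulators, 8 were lower and 9 higher, with a median of 0.04 (0 were lower after scaling to TPM). Their median transcript length was 2682 bp. Genes outside the members with transcripts of 2500 to 4000 bp had a median of 0.02, with 42.2% lower. Ppargc1a, the coactivator PGC-1alpha, stood at 11.5, 14.4 and 11.2 FPKM after IVCC and 11.4, 10.5 and 10.5 FPKM in Sham. Enzymes of the tricarboxylic acid cycle and pyruvate dehydrogenase were lower for 10 of 15, with a median of -0.07, and carrier and import genes for 12 of 16, with a median of -0.08, and these medians were 0.05 and 0.004 after quantile normalization. After scaling to TPM they were 0.11 and 0.10, both under the median of 0.15 over all genes tested. Complex I, the entry point for NADH, was lower for 36 of 38 members, with a median of -0.26 (31 members after scaling to TPM and 34 after quantile normalization). None of these lists was tested against the members.

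The same pattern over libraries appeared in short abundant transcripts outside the mitochondrion. Of the 81 tested cytosolic ribosomal protein genes, 80 were lower in IVCC, with a median of -0.23. After scaling to TPM, where all genes tested had a median of 0.15, 70 were lower, and 64 were after quantile normalization. They deviated by -0.17, -0.43 and 0.19 in IVCC and by 0.08, -0.18 and 0.52 in Sham replicates 1 to 3. Members also have short transcripts, with a median length of 744 bp against 2546 bp over all genes tested. Across the 46 members, log2 transcript length correlated with the log2 fold change (Pearson r = 0.472, Spearman rho = 0.491) and with the difference between Sham replicates 3 and 2 (r = -0.615, rho = -0.584). These are correlations over genes that share the same 6 libraries, and no p is given. Among genes that are not members, the median log2 fold change was -0.22 for transcripts of 500 to 700 bp (12 members in this range, median -0.27), -0.06 for 1500 to 2500 bp (8 members, median -0.14) and 0.11 above 4000 bp. Below 500 bp it was -0.12 for 204 such genes, and the 8 members had a median of -0.28. After transcript length and GC content were fitted out of each library, the median of the members was -0.13 and that of all genes tested -0.01. After quantile normalization it was -0.04. How much of the members' difference goes with transcript length was not tested beyond this.

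**Figure D5:**
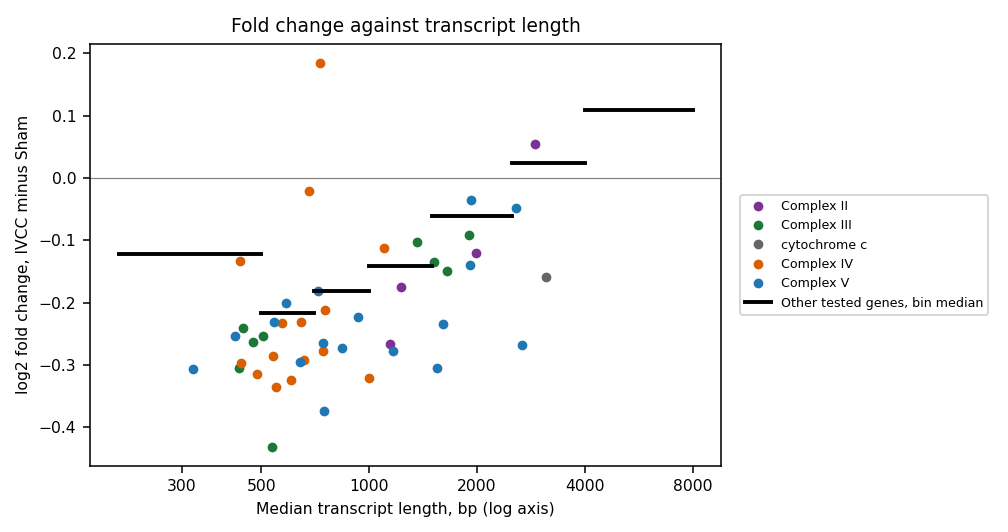
Log2 fold change of each tested member (points, coloured by complex) against its median transcript length on a log axis, with the median of the other tested genes in each length range as black bars. The bars climb from -0.22 at 500 to 700 bp to 0.11 above 4000 bp, and most members lie at or below the bar of their length.

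Cell composition was read from marker genes of the kidney. For the tissue label, proximal tubule, thick limb, collecting duct and glomerular markers were all present. The 10 proximal tubule markers summed to 4597 to 4786 FPKM in IVCC and 4294 to 4640 FPKM in Sham, with 7 higher and 3 lower in IVCC (5 lower after the length and GC correction). The 7 thick limb and distal markers summed to 1799 to 2073 FPKM in IVCC and 1468 to 2498 FPKM in Sham. All 7 glomerular and endothelial markers were higher in IVCC (51.6% of all genes tested were lower), and their sums, 122.4 to 166.4 FPKM against 108.6 to 114.4 FPKM, did not overlap. Singly, 3 of the 7 did not overlap, against 4.09% of all genes tested that lay higher without overlap. These markers had a median length of 3995 bp. Genes outside the members had a median of 0.02 at 2500 to 4000 bp, with 42.2% lower, and 0.11 above 4000 bp, with 19.3% lower. The markers' median was 0.58, and 0.46 after the length and GC correction. At an unadjusted limma p under 0.05, 5 of the 7 lay higher in IVCC, against 1.7% of all genes tested. None of the 7 passed the adjusted threshold. Their part in the members' values was not tested, and in whole kidney RNA fewer cells of a type and less RNA per cell cannot be told apart. Adrenal markers summed to at most 1.20 FPKM in any library, with 4 of 6 listed at 0.

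FPKM do not carry read totals. From the steps between low values, under an assumed fragment length of 200 bp, nominal depth came to 8290000 to 9160000 reads for IVCC libraries and 6180000 to 7160000 for Sham libraries, with 53.8% to 56.5% of the low values within 0.1 reads of a whole multiple of 1 read, too few for a count test. All 3 IVCC libraries were thus nominally deeper than all 3 Sham libraries, and the part of depth in the members' values was not tested. At these sizes members above 100 FPKM rest on at least about 150 reads in every library, so counting error is small beside the spread between libraries. Many genes of the respiratory chain have near-identical processed pseudogenes, and how shared reads were assigned is not given in the sources used here, so that levels of single members are uncertain to that extent.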

How the data were processed

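RNA of mouse kidneys was sequenced from stranded mRNA libraries as single reads, per the labels' protocols. The authors deposited FPKM values, 1 column per library. Per the submitters' processing notes, the tools were Cufflinks 2.2.1, SAMtools 0.1.19, Bowtie2 2.2.3 and TopHat2 2.0.13, on mm10, with no roles stated. The sources used here do not give the annotation, filters or scaling. Library sums of FPKM ran from 719896 to 1118258.

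Genes averaging 1 FPKM or more were fitted as log2(FPKM + 1) with limma 3.58.1 in R 4.3.3 (eBayes with trend, two-sided, Benjamini-Hochberg over 12090 genes, threshold 0.05), a script tested on simulated data. Fold changes on this scale understate those of low genes. Lists were described by counts and medians, with no test. Transcript lengths, GC content and coordinates came from GENCODE M21 (GRCm38, the assembly mm10 names), and 99.4% of tested genes had a length. Nominal depth assumed a fragment length of 200 bp. Values in every library are given for, per complex, the 2 members with the highest mean, the 2 most negative and 1 most positive fold changes, the smallest p, and all isoform families. Other lists name up to 3 genes by p. Members, lists and tests were chosen with earlier results of these data known. The labels do not say whether replicate numbers pair the libraries, and no pairing was assumed. Alternatives were pseudocounts, filters, scalings, eBayes settings, the replicate block, the length and GC correction, and left-out libraries. A YY1 motif and a stricter form of the NRF1 motif were also searched at first and are not reported here.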

Additional observations from a re-analysis of the deposited data

How the results depend on the processing

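No member passed an adjusted p of 0.05 under any of the 19 other settings of the whole fit. Over all genes, limma passed 1 gene with the replicate block plus the length and GC correction, 4 without both libraries numbered 3, and 0 to 4 when 1 library was left out. The replicate number as a block left 0 genes past the threshold and put 32 members at an unadjusted p under 0.05 (2388 genes in all), against 1 without it. The smallest adjusted limma p among members was 0.0856 with that block and 0.148 with the length and GC correction added. Deviations from the group means were correlated over genes between same-numbered libraries, at -0.107, 0.343 and 0.323, so 2 of 3 pairs deviated together and 1 did not. Deviations cancel within a group, so these pairs are not independent. IVCC replicate 2 against Sham replicate 3 gave -0.372, and IVCC replicate 3 against Sham replicate 2 gave -0.364. The labels do not say whether a number marks a shared batch, and pairing was not assumed. Replicate 1 of IVCC correlated best with replicate 2 of Sham. With 1 library left out, the median log2 fold change ran from -0.26 to -0.03 for complex II, -0.42 to -0.02 for complex III, -0.44 to -0.07 for complex IV and -0.38 to -0.06 for complex V, and from -0.24 to -0.04 for Cycs. The high ends came from leaving out Sham replicate 3, after which 33 members were lower. The complex II median was 0.028 after TPM scaling and 0.023 after quantile normalization.

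Signs of named members turned as follows, none past the threshold. TPM scaling, which raised the median of all genes, gave Atp5b 0.038, Atp5sl 0.14, Cox6a2 0.12, Cox6b2 0.034, Cox7a2l 0.064, Cycs 0.018, Sdhd 0.0013 and Uqcrc2 0.085. Quantile normalization gave Atp5b 0.0040, Atp5g3 0.10, Atp5sl 0.041, Cox4i1 0.028, Cox6a1 0.031, Cox7a2l 0.014, Cycs 0.020 and Uqcrc2 0.058. The length and GC correction, with or without the replicate block, gave Atp5sl 0.046, Cox6a2 0.11 and Cox7a2l 0.039. Without both libraries numbered 3, Cox6b2 was 0.096. With 1 library left out, values ran from -0.28 to 0.025 for Atp5b, -0.33 to 0.0015 for Atp5g2, -0.18 to 0.052 for Atp5sl, -0.42 to 0.38 for Cox6a2, -0.33 to 0.095 for Cox6b2 and -0.25 to 0.065 for Cox7a2l, each high end without Sham replicate 3. The cause was not tested. Leaving Atp5s and Atp5sl out of complex V was chosen after seeing the data.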
